A study of Rattus norvegicus with 84 samples.

Results

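Lysosomal proteases and their partner proteins were followed through the mRNA cargo of extracellular vesicles (EVs), the membrane particles that cells release. The 10 genes were 5 cathepsins (the cysteine proteases Ctsb, Ctsl, Ctss and Ctsz and the aspartic protease Ctsd), the asparaginyl endopeptidase legumain (Lgmn), the membrane proteins Lamp1 and Lamp2, the saposin precursor Psap and the progranulin gene Grn. They were taken by symbol, and all 10 were found among the 18782 annotated genes of the mRNA count table. All 10 had enough reads to be tested in both kinds of EVs.

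The vesicles came from male Sprague-Dawley rats, labelled wild type, of which 21 gave 1 brain and 1 plasma mRNA library each. The age of 8 to 12 weeks is given for the rats put through the occlusion, and none was recorded here for the healthy rats. Healthy rats were not operated on. The control rats and the hNSCs rats underwent 90 min of transient middle cerebral artery occlusion and received, 3 days later and into the artery, saline (control group) or 200000 human neural stem cells (hNSCs group). Both were euthanized 4, 10 or 31 days after the stroke, which gave 7 groups of 3 rats. Brain-derived EVs were taken from a piece of the hemisphere on the side of the occlusion after enzymatic dissociation, and plasma-derived EVs by size exclusion. No rat had surgery without occlusion, so that in every comparison with healthy rats the stroke, the surgery and the saline injection cannot be told apart.

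A lysosome is an acidic organelle in which cathepsins, made as inactive precursors, cut proteins that arrive by endocytosis, phagocytosis or autophagy. LAMP proteins line its membrane, saposins help its enzymes to reach lipids, and progranulin is a secreted and lysosomal protein whose loss causes lysosomal storage disease in neurons. After brain injury, microglia and infiltrating macrophages engulf dying cells and are known for strong expression of these genes. The transcription factor TFEB drives many lysosomal genes through promoter elements with the core CACGTG.

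Library size set how firmly the brain values can be read. The deposited brain libraries held between 13221461 and 37651652 counts, of which annotated genes took 3.18% to 51.9%, and the plasma libraries between 11878367 and 49824782 counts, of which annotated genes took 45.1% to 75.6%. In brain the annotated counts ran from 569136, in replicate 3 of the hNSCs group at 10 days, to 15587216, and the 10 genes together had between 694 and 15138 counts. The mean annotated share was 13.9% ± 6.90 (SD, n = 3) in healthy brain, 23.5% ± 1.67 after 4 days in the control group, 12.3% ± 1.06 after 10 days and 38.2% ± 6.92 after 31 days, so it moved with the groups, and its part in the results was not tested. The tissue labels were met by the markers. The summed level of 6 neuronal genes lay between 982 and 4843 CPM (annotated counts brought to a common library size with TMM factors) in brain-derived EVs and between 0 and 19.0 CPM in plasma-derived EVs.

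After stroke, brain-derived EVs carried more mRNA of several of these proteases. Ctsb, Ctsd and Lgmn rose at 4 days poststroke, and Ctsb, Ctsd and Ctss rose at 10 days. The rises were 4.89- to 12.9-fold. In both cases 3 of the 10 genes were called, where called means a Benjamini-Hochberg adjusted p under 0.05 over all genes tested and a change over 1.5-fold in edgeR's quasi-likelihood test. Of all 14515 genes tested in brain, 0.730% were called higher at 4 days and 0.537% at 10 days. The comparisons at the 3 days share the same 3 healthy rats. In EVs from a piece of the hemisphere, fewer or more cells of a type, vesicles released per cell and RNA per cell cannot be told apart.

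Ctsb encodes cathepsin B, a cysteine protease of most cells that is abundant in microglia. Its level was 90.5, 65.1 and 49.5 CPM in the 3 healthy brains, 606, 359 and 186 CPM in the control group at 4 days, 105, 879 and 214 CPM at 10 days, and 153, 145 and 115 CPM at 31 days. No poststroke control library overlapped with a healthy one, and the highest of all, replicate 2 at 10 days, stood far above its 2 group mates. The log2 fold change against healthy was 2.50 ± 0.56 (SE; 5.64-fold, adjusted p = 0.0296) at 4 days and 2.55 ± 0.56 (5.87-fold, adjusted p = 0.0391) at 10 days.

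Ctsd encodes cathepsin D, the main aspartic protease of lysosomes. Its level was 43.8, 69.1 and 26.4 CPM in healthy brain, 462, 337 and 324 CPM in the control group at 4 days, 90.8, 1079 and 330 CPM at 10 days, and 109, 234 and 126 CPM at 31 days. Again every control library lay above every healthy library, and again replicate 2 at 10 days was the highest. The log2 fold change was 3.01 ± 0.68 (8.03-fold, adjusted p = 0.0315) at 4 days and 3.42 ± 0.69 (10.7-fold, adjusted p = 0.0254) at 10 days.

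Lgmn encodes legumain, which cuts after asparagine and processes cathepsins to their mature forms. Its level was 39.5, 33.4 and 35.5 CPM in healthy brain, 206, 166 and 158 CPM in the control group at 4 days, 73.7, 201 and 60.5 CPM at 10 days, and 69.4, 89.3 and 54.3 CPM at 31 days. At 4 days the 3 libraries of each group lay close together and far from the other group. The log2 fold change was 2.29 ± 0.44 (4.89-fold, adjusted p = 0.0155) at 4 days, and at 10 days it was 1.63 ± 0.43 with an adjusted p of 0.0921.

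Ctss encodes cathepsin S, a cysteine protease of myeloid cells that works in antigen presentation. It was at 0, 23.9 and 13.2 CPM in healthy brain, at 155, 82.8 and 93.1 CPM in the control group at 4 days, at 36.2, 319 and 149 CPM at 10 days, and at 62.0, 82.7 and 53.0 CPM at 31 days. All 9 control libraries were above the 3 healthy ones. The level of 0 was in healthy replicate 1, which had the fewest annotated counts of the healthy brains (1403190). Grn, Ctsl, Ctsz and Lamp2 were also at 0 there. The 3 healthy libraries held 155 counts of Ctss in all, so its fold change rests on a low base. The log2 fold change was 3.69 ± 0.82 (12.9-fold, adjusted p = 0.0408) at 10 days, and at 4 days it was 3.08 ± 0.80 with an adjusted p of 0.0653.

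**Figure D1:**
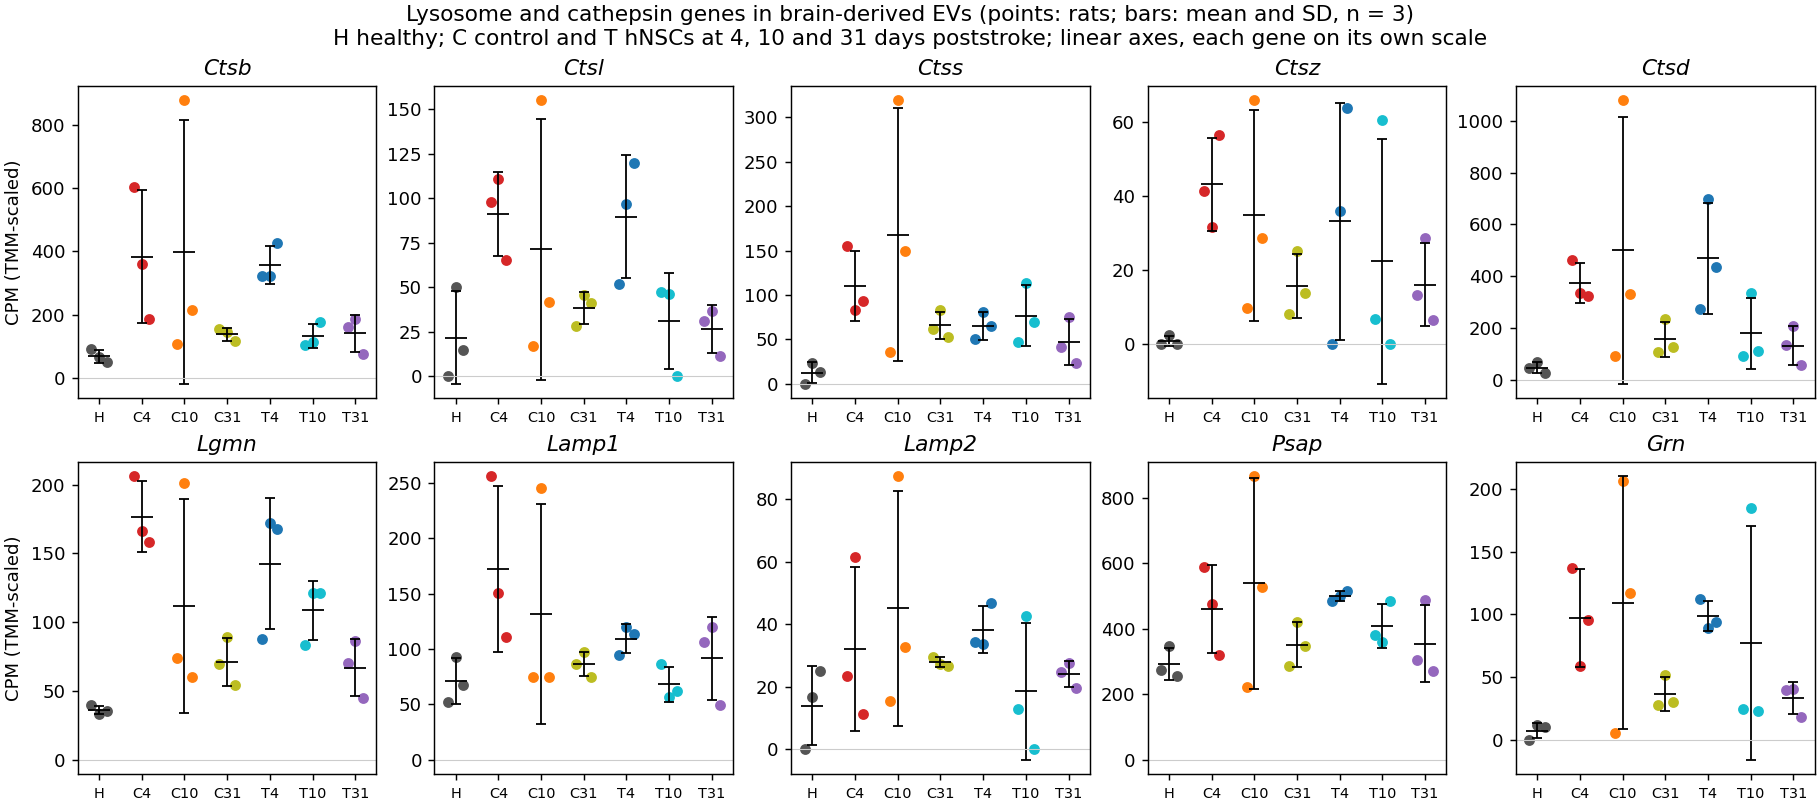
Level of each of the 10 genes in brain-derived EVs, in CPM on a linear axis with its own scale per gene (y axis), by group (x axis; H healthy, C control, T hNSCs, with the day), with 1 point per rat and bars for the mean and SD (n = 3). Ctsb, Ctsd and Ctss lie above healthy in every control library at 4, 10 and 31 days, and replicate 2 of the control group at 10 days is the highest point for Ctsb (879 CPM), Ctsd (1079 CPM) and Ctss (319 CPM).

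These calls rested on few rats. At 4 days, none of the 10 genes was called without replicate 1 of the control group or without any one of the 3 healthy rats, 1 without replicate 2 and 2 without replicate 3. At 10 days, none was called without replicate 2 of the control group or without any one healthy rat, 6 without replicate 1 and 2 without replicate 3. The number of all genes called changed with them, from 125 to between 0 and 95 at 4 days, and from 83 to between 0 and 8 at 10 days where none of the 10 was called, 367 without replicate 1 and 56 without replicate 3. Each of the 10 genes had its highest level of the group in replicate 2 at 10 days, and together they took 0.390% of its annotated counts against 0.0658% and 0.158% in the other two libraries of its group. Without it, the log2 fold changes at 10 days were 1.24 for Ctsb (adjusted p = 0.640), 2.19 for Ctsd (adjusted p = 0.317) and 2.85 for Ctss (adjusted p = 0.361).

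Grn, Ctsz, Ctsl, Lamp1, Lamp2 and Psap were called at neither day. Grn was at 0, 11.5 and 9.85 CPM in healthy brain and at 137, 59.0 and 95.5 CPM in the control group at 4 days. No library overlapped, and the log2 fold change was 3.68 ± 1.01 with an adjusted p of 0.0795. At 10 days Grn was at 5.11, 206 and 117 CPM, with the first of these libraries inside the healthy range. Ctsz, which encodes the carboxypeptidase cathepsin Z, had counts in 1 healthy library only, so that its levels were 0, 2.44 and 0 CPM, and its fitted change depends on the prior count. At 4 days it was at 41.3, 31.6 and 56.5 CPM (adjusted p = 0.124), above all healthy libraries.

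Ctsl encodes cathepsin L, a cysteine endopeptidase. It was at 0, 50.5 and 14.9 CPM in healthy brain and at 98.0, 111 and 65.2 CPM at 4 days, with a log2 fold change of 2.03 ± 1.04 (adjusted p = 0.381). The groups did not overlap, but the healthy libraries spread widely. Lamp1, the major lysosomal membrane glycoprotein, was at 52.5, 93.3 and 67.8 CPM in healthy brain and at 256, 151 and 111 CPM at 4 days, a log2 fold change of 1.27 ± 0.46 (adjusted p = 0.176). Lamp2, its relative that also serves chaperone-mediated autophagy, overlapped with healthy at 4 days, with 0 to 25.0 CPM in healthy brain and 11.3 to 61.6 CPM in the control group. Psap was at 274, 347 and 255 CPM in healthy brain and at 588, 476 and 321 CPM at 4 days, where the lowest control library lay under the highest healthy one (log2 fold change 0.66 ± 0.35, adjusted p = 0.409).

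Counted over the 10 genes, the groups did not overlap and were higher for 8 genes at 4 days (all but Lamp2 and Psap), for 5 at 10 days (Ctsb, Ctss, Ctsz, Ctsd and Lgmn) and for 7 at 31 days (those 5 with Lamp2 and Grn). The same held for 13.9%, 7.05% and 18.9% of all genes tested. At an unadjusted p under 0.05, 7 of the 10 were higher at 4 days, 7 at 10 days and 5 at 31 days, beside 8.52%, 7.54% and 5.30% of all genes. The median log2 fold change of the 10 genes was 2.39 at 4 days and 2.12 at 10 days, and that of all genes tested was 0.05 and 0.00. Summed over the 10 genes, the level was 570 ± 124 CPM (SD, n = 3) in healthy brain, 1943 ± 583 CPM in the control group at 4 days, 2111 ± 1788 CPM at 10 days and 987 ± 202 CPM at 31 days.

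At 31 days none of the 10 genes was called against healthy by edgeR or by DESeq2, where edgeR called 0.00689% and DESeq2 0.933% of all genes higher. The 5 genes at an unadjusted p under 0.05 were Ctsz, Ctss, Grn, Ctsd and Lgmn, with log2 fold changes of 4.02, 2.34, 2.26, 1.75 and 0.98 and adjusted p values from 0.483 to 0.601. The first 3 rest on a low healthy base. The 3 healthy libraries held 11 counts of Ctsz in all (2 libraries at 0), 155 of Ctss (1 at 0) and 87 of Grn (1 at 0). limma on log2 of the deposited FPKM plus 1 called all 10, but it also called 8273 of the 14515 genes at this day. The median log2 fold change of the 10 genes was 1.00, against 0.24 for all genes tested.

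**Figure D2:**
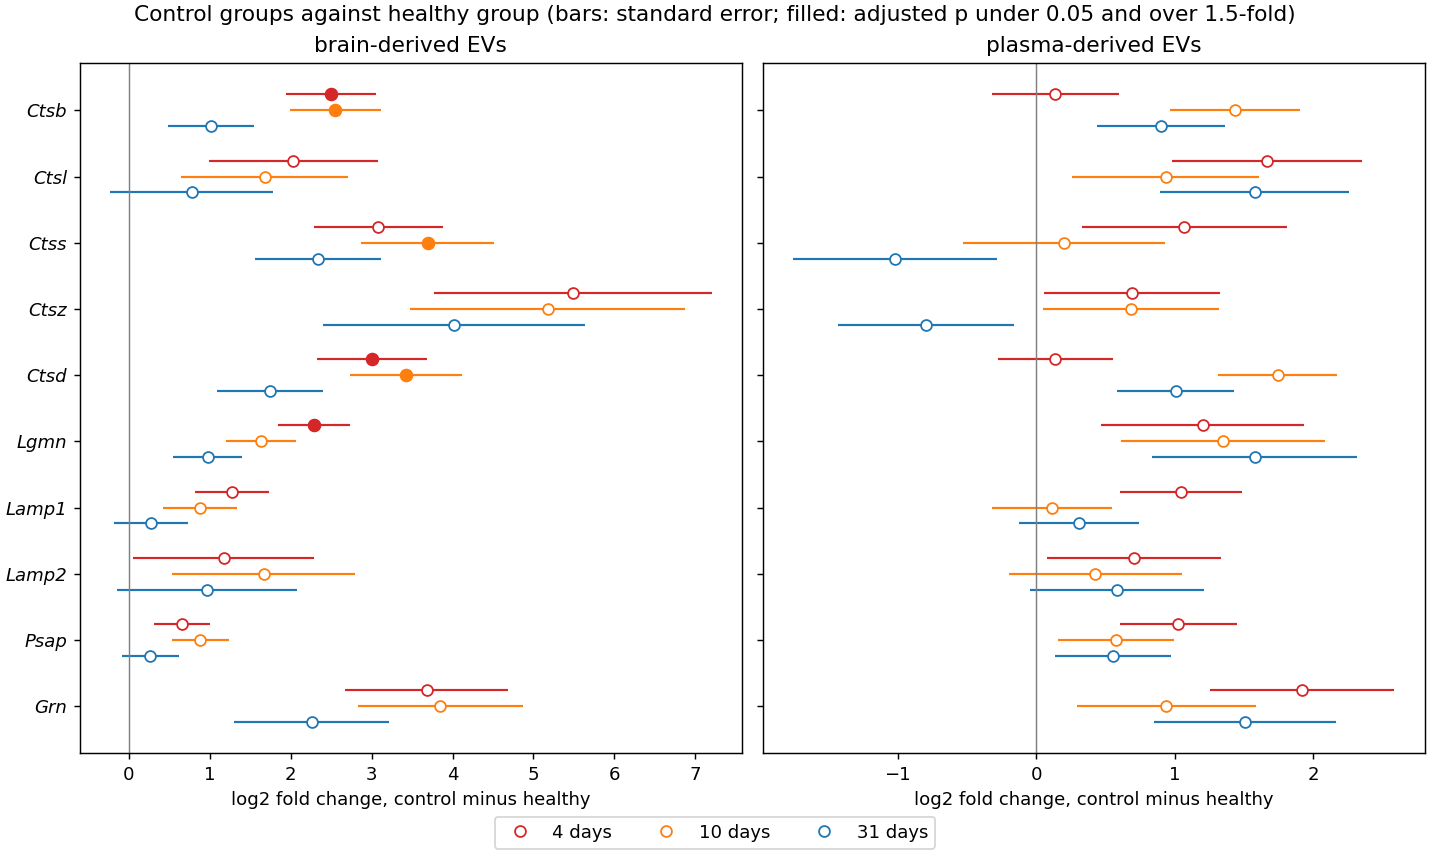
Log2 fold change of each of the 10 genes in the control group against healthy (x axis) at 4, 10 and 31 days, in brain-derived EVs (left) and plasma-derived EVs (right), with bars of 1 standard error and filled points for calls. The filled points are Ctsb, Ctsd and Lgmn at 4 days and Ctsb, Ctsd and Ctss at 10 days in brain, and no point is filled in plasma.

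When the mean of the 3 control groups was set against healthy, none of the 10 genes was called by edgeR, where 0.158% of all genes were called higher. At an unadjusted p under 0.05, 7 were higher (7.05% of all genes), and the lowest adjusted p values were 0.0583 for Ctsd, 0.0656 for Lgmn, 0.0667 for Ctss and 0.0675 for Ctsb. DESeq2 called 6 of the 10, beside 3.87% of all genes called higher. Without replicate 1 of the control group at 10 days, edgeR called 5, beside 1.25%.

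Between 4 and 31 days poststroke, none of the 10 genes was called by edgeR or by DESeq2, which called 0.248% and 1.7% of all genes in either direction. The log2 fold changes in edgeR were below 0 for all 10, but this direction depended on the scaling. On the deposited FPKM scale the 10 genes summed to 49.2 ± 22.3 FPKM (SD, n = 3) at 4 days and 51.8 ± 20.9 FPKM at 31 days, and the mean was higher at 31 days for Psap (8.81 against 14.1 FPKM), Ctss (4.69 against 6.08), Lamp1 (4.31 against 4.62) and Lamp2 (0.55 against 0.974). With counts scaled by all counts, the log2 fold change was above 0 for Psap, Lamp2 and Ctss. At an unadjusted p under 0.05 in edgeR there were 3 genes, beside 9.50% of all genes: Ctsb with a log2 fold change of -1.48, Lgmn with -1.31 and Lamp1 with -0.999. In CPM the groups did not overlap and were lower at 31 days for 8 of the 10, and for 10.1% of all genes. This comparison shares its day 4 and day 31 rats with the comparisons against healthy above.

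Promoter sequences from RefSeq (assembly GRCr8, 250 bases before to 50 bases after the start of the gene, read along its strand) were matched by symbol for 8 of the 10 genes, all but Ctsb and Psap. Shown are the called genes with a promoter entry, Ctsd (chr1:206968772-206969071, minus strand), Ctss (chr2:185775146-185775445, plus strand) and Lgmn (chr6:127347279-127347578, minus strand), and Lamp1 (chr16:83075014-83075313, minus strand), which had the most copies of the TFEB element core. Capitals mark CACGTG, which reads the same on both strands, and CATGTG on either strand, an E-box used by the MITF family to which TFEB belongs.
Ctsd: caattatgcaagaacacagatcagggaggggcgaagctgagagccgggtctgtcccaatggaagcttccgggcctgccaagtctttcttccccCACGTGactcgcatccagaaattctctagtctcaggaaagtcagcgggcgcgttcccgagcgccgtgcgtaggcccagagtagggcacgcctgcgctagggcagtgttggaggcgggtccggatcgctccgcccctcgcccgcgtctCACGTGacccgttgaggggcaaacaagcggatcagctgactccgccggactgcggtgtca
Ctss: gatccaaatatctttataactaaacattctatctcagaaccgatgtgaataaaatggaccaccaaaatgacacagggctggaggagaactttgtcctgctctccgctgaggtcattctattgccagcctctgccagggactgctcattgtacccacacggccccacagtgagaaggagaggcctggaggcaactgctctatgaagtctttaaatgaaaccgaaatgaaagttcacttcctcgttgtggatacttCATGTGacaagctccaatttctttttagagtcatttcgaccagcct
Lgmn: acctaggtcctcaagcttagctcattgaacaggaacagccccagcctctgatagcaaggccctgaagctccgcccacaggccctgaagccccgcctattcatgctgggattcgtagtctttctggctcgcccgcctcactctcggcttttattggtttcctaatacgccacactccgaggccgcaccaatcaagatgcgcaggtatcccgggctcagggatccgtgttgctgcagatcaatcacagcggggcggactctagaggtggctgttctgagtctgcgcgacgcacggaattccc
Lamp1: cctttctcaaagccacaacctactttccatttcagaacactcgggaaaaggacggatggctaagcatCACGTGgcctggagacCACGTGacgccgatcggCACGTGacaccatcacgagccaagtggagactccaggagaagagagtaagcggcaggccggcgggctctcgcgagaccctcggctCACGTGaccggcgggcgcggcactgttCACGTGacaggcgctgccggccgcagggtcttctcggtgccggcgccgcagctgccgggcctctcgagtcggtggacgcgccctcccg
CACGTG was found in 2 of the 8 promoters, Ctsd and Lamp1, and in 6.42% of all 33469 RefSeq promoters of this length. CATGTG was found in Ctss and Grn, and in 14% of all promoters. GAGGAA, a core of sites for PU.1, the ETS factor of myeloid cells, was found on either strand in Ctss, Ctsz, Grn and Lamp2, and in 27.6% of all promoters. Of the called genes, Ctsd held CACGTG, Ctss held CATGTG and GAGGAA, and Lgmn held none of the 3 motifs in this window.

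Markers of several cell types moved beside the protease genes in brain. The 12 markers of microglia and macrophages, none of which is among the 10 genes, summed to 76.9 to 105 CPM in healthy brain with Tyrobp at 0. In the control group they summed to 571 to 1172 CPM at 4 days, to 260 to 2094 CPM at 10 days and to 248 to 526 CPM at 31 days. All 12 had a positive change at each of the 3 days, with median log2 fold changes of 2.83, 3.44 and 2.19. The complement genes C1qb and C1qc rose at 4 days, by 4.22 and 5.71 on the log2 scale, and C1qa, C1qb, C1qc and the receptor gene Csf1r rose at 10 days, by 3.22, 3.99, 5.14 and 2.82. The neuronal markers summed to 3664 to 4544 CPM in healthy brain and to 1579 to 2829 CPM at 4 days. At 10 and 31 days they summed to 982 to 3564 CPM and 2861 to 4023 CPM. The 6 astrocyte markers summed to 1156 to 1246 CPM in healthy brain and to 3242 to 3576 CPM at 4 days, with Gfap called. They summed to 2427 to 3749 CPM at 10 days and 3607 to 4755 CPM at 31 days. Gfap was also called at 31 days without any one control library of that day (log2 fold change 2.31 to 2.57). Its call at 31 days without a healthy rat is not given here. At 10 days Gfap was called without replicate 1 or 3 of the control group, but not without replicate 2 or any one healthy rat. Markers of neutrophils and monocytes summed to 4.87 to 18 CPM in healthy brain with Cd14, Mpo, S100a8 and S100a9 at 0, and to 83.4 to 374 CPM at 4 days with Mpo and S100a8 at 0, where Lyz2 was called (3.99 on the log2 scale, adjusted p = 0.0303). They summed to 9.80 to 360 CPM at 10 days and 22.2 to 23 CPM at 31 days. From healthy brain to 4 days, vascular markers went from 381 to 582 CPM to 805 to 1475 CPM, and oligodendrocyte markers from 2506 to 2818 CPM to 3564 to 5703 CPM. At 10 and 31 days vascular markers summed to 337 to 868 CPM and 232 to 402 CPM. Oligodendrocyte markers summed to 2671 to 11624 CPM and 1666 to 1951 CPM at these days. The calls of C1qa, C1qb, C1qc and Csf1r at 10 days were lost without replicate 2 of the control group or without any one healthy rat, and those of C1qa and C1qb also without replicate 3. At 4 days the calls of C1qb and Lyz2 were lost without replicate 1 of the control group or without any one healthy rat, that of Lyz2 also without replicate 2, and those of C1qc and Gfap without healthy replicate 1 or 3. The part of these cells in the changes of the 10 genes was not tested.

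**Figure D3:**
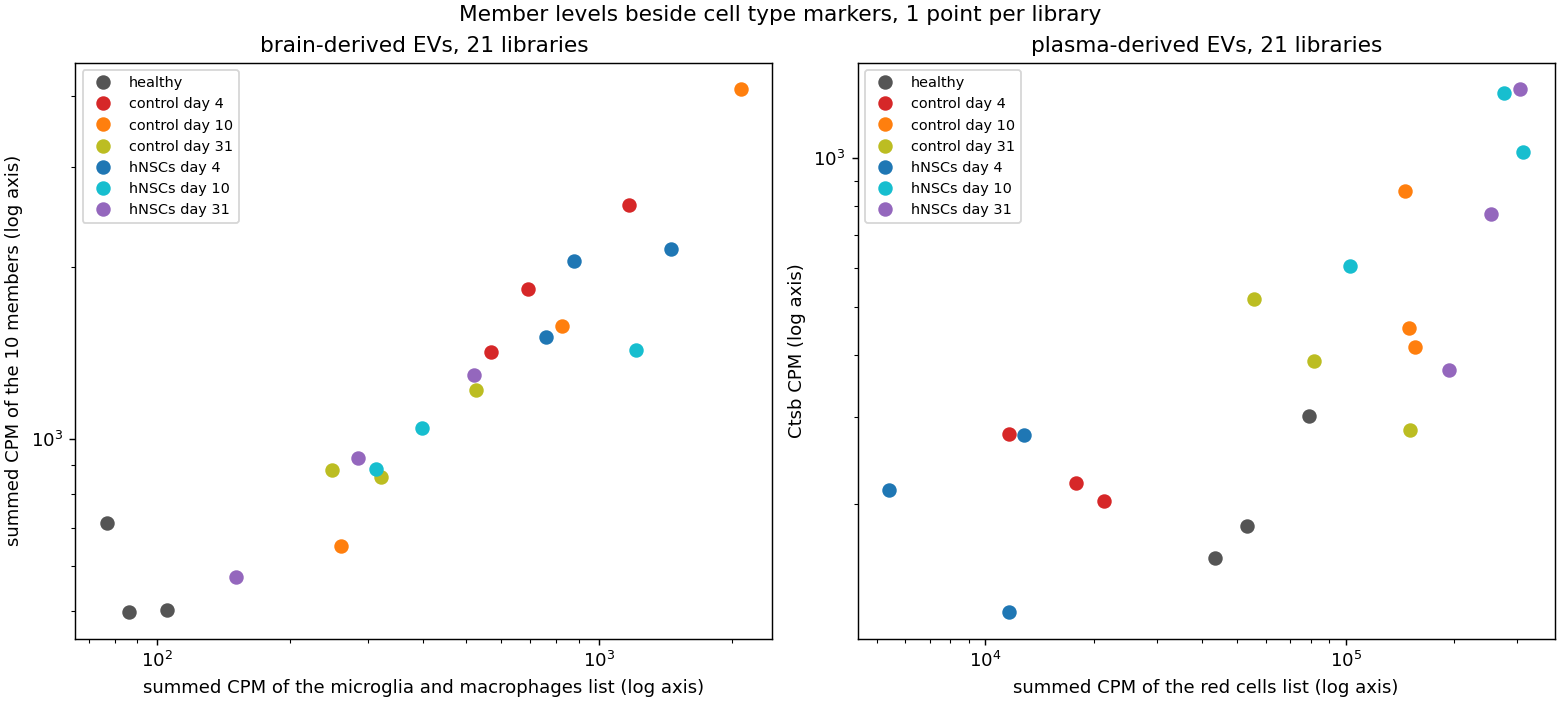
Left, summed level of the 10 lysosomal genes (y axis) beside that of the 12 microglia and macrophage markers (x axis) in each of the 21 brain libraries; right, level of Ctsb (y axis) beside the summed level of 5 red cell markers (x axis) in each of the 21 plasma libraries, all in CPM on log axes. In brain the healthy libraries are lowest on the markers (76.9 to 105 CPM) and replicate 2 of the control group at 10 days is highest on both axes (2094 CPM of the markers), and in plasma the 3 libraries highest in Ctsb (1028, 1352 and 1378 CPM) are from hNSCs rats at 10 and 31 days.

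Of 70 further lysosomal genes tested in 6 lists, none was called at 4 days, 2 were called at 10 days and none at 31 days in brain, beside 0.73%, 0.537% and 0.00689% of all genes called higher. At an unadjusted p under 0.05, 5, 9 and 4 of the 70 were higher, beside 8.52%, 7.54% and 5.3% of all genes. The 2 called genes were Npc2, which carries cholesterol out of the lysosome (log2 fold change 3.45, adjusted p = 0.0469), and Cst3, the secreted cathepsin inhibitor cystatin C (2.17, adjusted p = 0.0477). In the control group at 10 days Npc2 was at 35.4, 502 and 78.5 CPM and Cst3 at 206, 1380 and 523 CPM. Replicate 2 was again the highest, and without it the log2 fold changes were 1.60 for Npc2 (adjusted p = 0.688) and 1.23 for Cst3 (adjusted p = 0.645). Both calls were also lost without any one healthy rat, and that of Cst3 without replicate 3. By list, the median log2 fold change at 4 days was 1.22 for 8 other lysosomal proteases, 0.88 for 24 glycosidases, lipases and sulfatases, 0.78 for 12 membrane and transport proteins, 0.34 for 8 sorting receptors and regulators, 0.22 for 3 cystatins and 0.06 for 15 subunits of the proton pump that acidifies the lysosome. In plasma none of the 70 was called against healthy at 4, 10 or 31 days, with 2, 0 and 0 higher at an unadjusted p under 0.05.

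Transplantation of hNSCs was compared with the control group at each day, and no change of the 10 genes was called in brain-derived EVs. The control libraries are those already set against healthy rats. At 4 days the hNSCs group had 321, 323 and 427 CPM of Ctsb and 272, 699 and 436 CPM of Ctsd, with Ctsb inside the control range and Ctsd on both sides of it. At 31 days it had 161, 187 and 75.0 CPM of Ctsb, on both sides of the control range. Without overlap, only Ctss at 4 days was lower with hNSCs (49.9 to 80.8 against 82.8 to 155 CPM), as were 990 of all 14515 genes tested. None of the 10 genes reached an unadjusted p under 0.05 at 4 or at 31 days, where 7.53% and 0.0896% of all genes did. edgeR called 0% of all genes at 4, 10 and 31 days, and DESeq2 called none of the 10 at any of the 3 days, where it called 1.53%, 4.43% and 0% of all genes. The median log2 fold change of the 10 genes was -0.06 at 4 days and -0.11 at 31 days, beside -0.11 and 0.00 for all genes.

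At 10 days, Ctsb was at 104, 114 and 176 CPM in the hNSCs group and Ctsd at 91.6, 335 and 110 CPM. The log2 fold changes were -1.62 ± 0.54 for Ctsb (adjusted p = 0.311) and -1.48 ± 0.64 for Ctsd (adjusted p = 0.338), the 2 of the 10 genes at an unadjusted p under 0.05, beside 13.4% of all genes. Both rested on replicate 2 of the control group, without which the changes were -0.30 (adjusted p = 0.978) and -0.24 (adjusted p = 1.0). The median log2 fold change was -1.04 for the 10 genes and -0.34 for all genes. Replicate 3 of this hNSCs group had the fewest annotated counts of all libraries, and Ctsl, Ctsz and Lamp2 were at 0 in it.

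**Figure D4:**
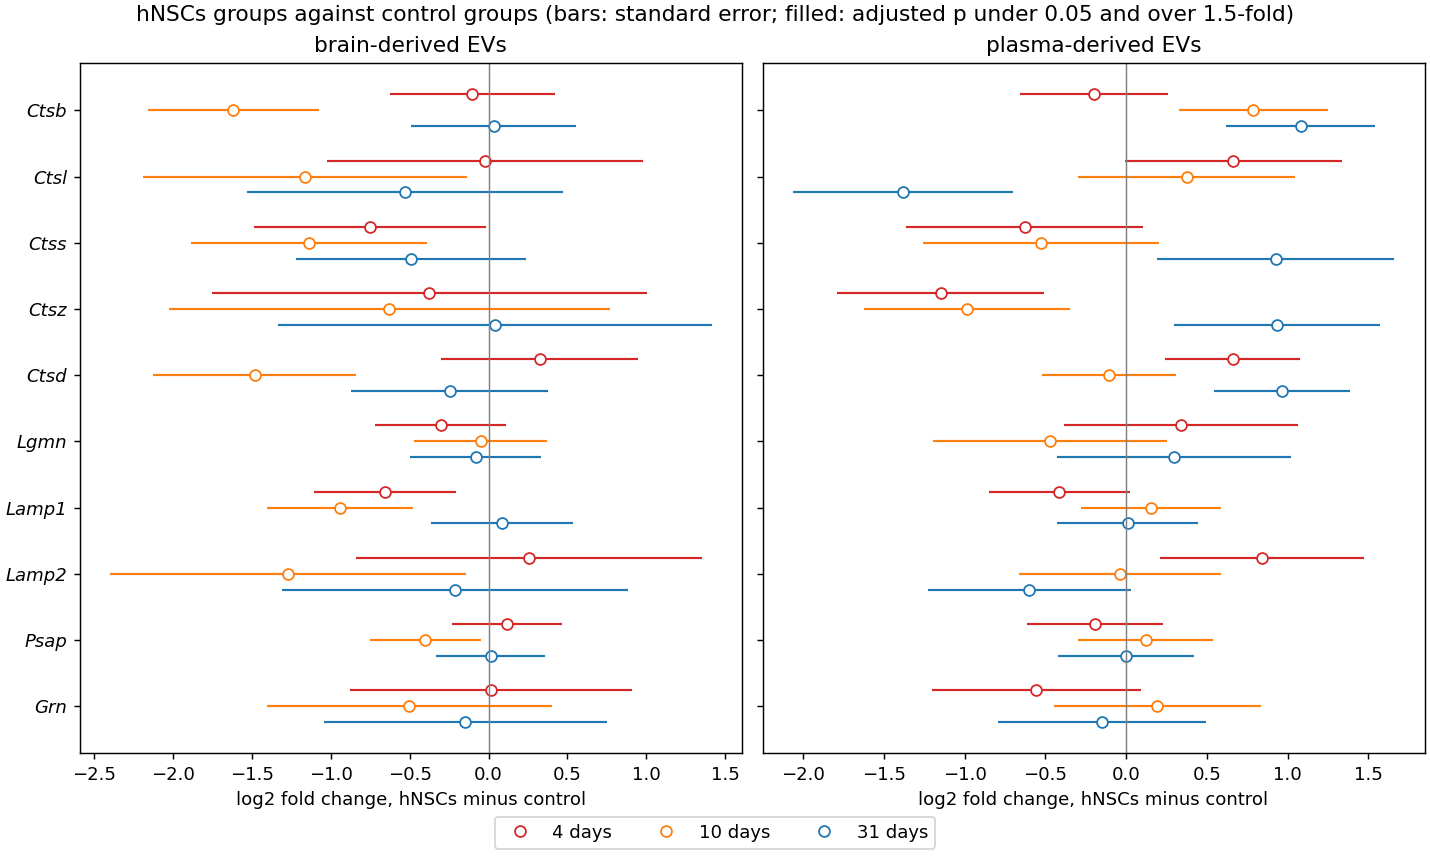
Log2 fold change of each of the 10 genes in the hNSCs group against the control group of the same day (x axis), in brain-derived EVs (left) and plasma-derived EVs (right), with bars of 1 standard error. No point is filled, since none was called, and the lowest value in brain is Ctsb at 10 days (-1.62).

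Whether the effect of hNSCs differed between days was tested by interaction terms. In brain none of the 10 genes was called or reached an unadjusted p under 0.05, for day 4 minus day 10 (0% of all genes called, 8.63% at an unadjusted p under 0.05) or for day 4 minus day 31 (0% and 4.23%). In plasma none was called for either difference, where 0.00679% of all genes were called in each and 5.69% and 9.96% reached an unadjusted p under 0.05. Ctsz and Ctsl were the 2 genes at an unadjusted p under 0.05, for day 4 minus day 31, with adjusted p values of 0.436 and 0.484.

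Plasma-derived EVs carried all 10 genes, and no poststroke difference was called. In healthy plasma the level of Ctsb was 181, 156 and 301 CPM. In the control group it was 203, 221 and 278 CPM at 4 days, 858, 455 and 416 CPM at 10 days and 520, 390 and 283 CPM at 31 days. Only at 10 days were all libraries above healthy (log2 fold change 1.44 ± 0.47, adjusted p = 0.750). Ctsd was at 71.8, 36.6 and 65.6 CPM in healthy plasma, at 46.8, 60.5 and 84.5 CPM at 4 days, at 156, 223 and 205 CPM at 10 days and at 137, 95.9 and 117 CPM at 31 days, so that the 2 later days lay above healthy. At 10 days its log2 fold change was 1.74 ± 0.43 (adjusted p = 0.636).

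Grn and Lgmn had narrow ranges in healthy plasma. Grn was at 15.1, 15.5 and 13.2 CPM there, and at 70.7, 44.4 and 50.8 CPM in the control group at 4 days, 19.9, 43.8 and 20.2 CPM at 10 days and 31.4, 43.2 and 49.8 CPM at 31 days. All 9 poststroke control libraries lay above the healthy ones, and the log2 fold change at 4 days was 1.92 ± 0.66 (adjusted p = 0.715). Lgmn was at 11.9, 11.1 and 11.2 CPM in healthy plasma, at 12.8, 36.8 and 29.1 CPM at 4 days, 53.5, 11.8 and 21.8 CPM at 10 days and 42.3, 42.7 and 17.1 CPM at 31 days, with replicate 2 at 10 days inside the healthy range. Psap was at 83.6, 146 and 132 CPM in healthy plasma and at 306, 214 and 217 CPM at 4 days, without overlap.

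**Figure D5:**
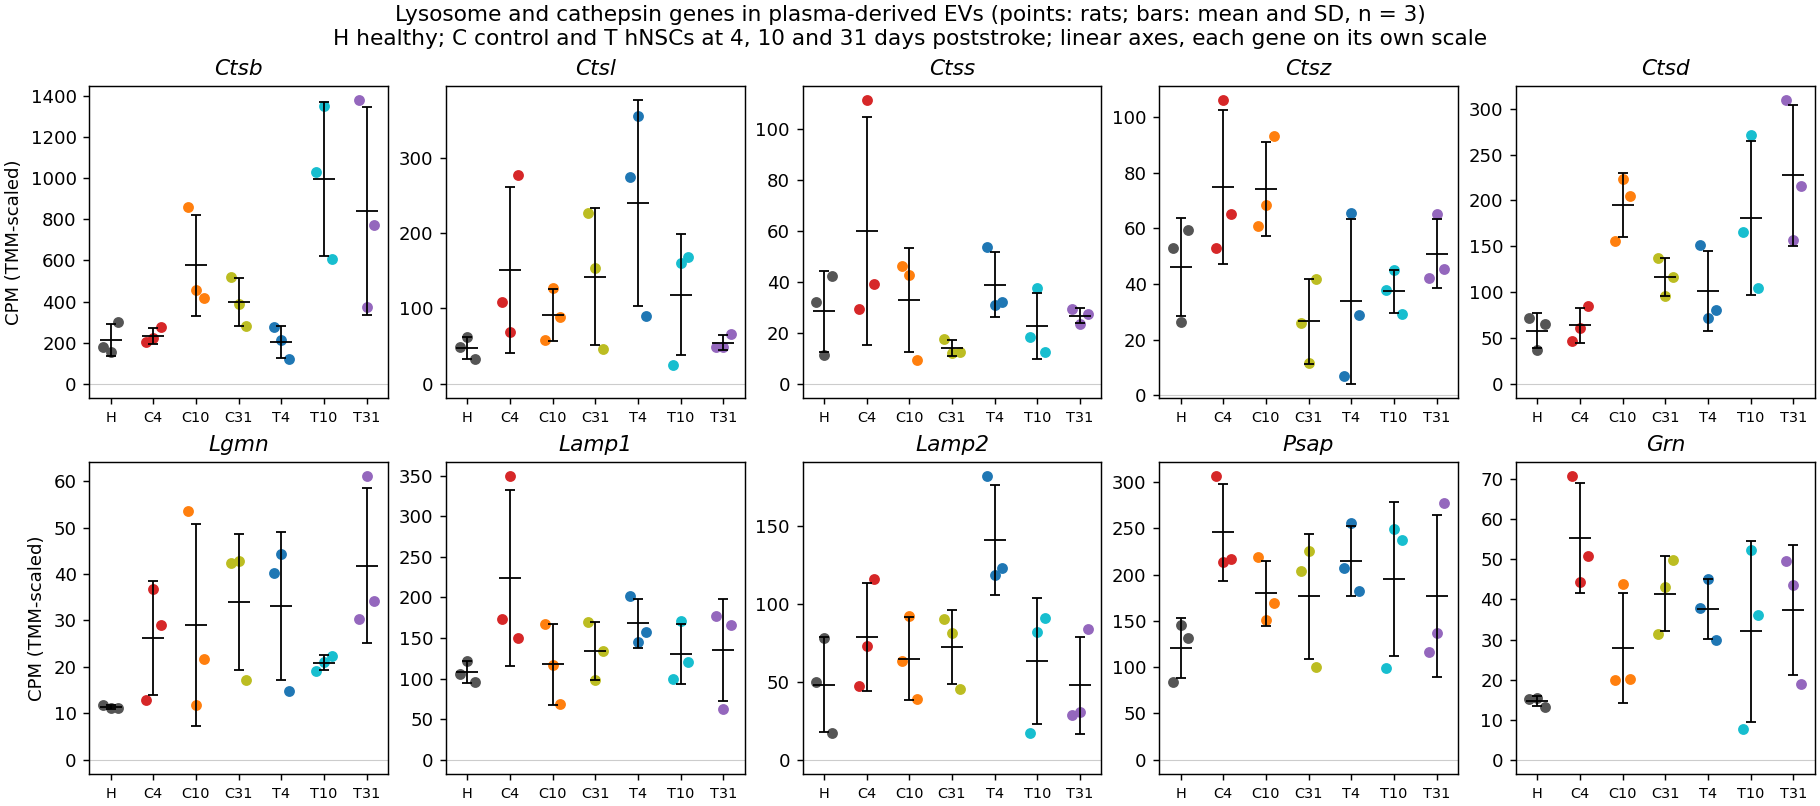
Level of each of the 10 genes in plasma-derived EVs, in CPM on a linear axis with its own scale per gene (y axis), by group (x axis; H healthy, C control, T hNSCs, with the day), with 1 point per rat and bars for the mean and SD (n = 3). Grn lies between 13.2 and 15.5 CPM in the healthy libraries and above them in all 9 control libraries.

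None of the 10 genes was called in plasma by edgeR against healthy at 4, 10 or 31 days or for the mean of the 3 days, where 0.00679%, 0%, 0% and 0% of the 14720 genes tested were called higher. DESeq2 called 1 at 4 days (Grn), 2 at 10 days (Ctsd and Ctsb), none at 31 days and 2 for the mean (Grn and Ctsd), where it called 1.38%, 1.27%, 1.22% and 1.35% of all genes higher. At an unadjusted p under 0.05 in edgeR, 4 were higher at 4 days (Grn, Ctsl, Lamp1 and Psap), 2 at 10 days (Ctsd and Ctsb), 4 at 31 days (Ctsl, Lgmn, Grn and Ctsd) and 5 for the mean, beside 1.40%, 1.07%, 0.971% and 0.815% of all genes. The groups did not overlap and were higher for 5 genes at 4 days, 5 at 10 days and 3 at 31 days, and for 4.06%, 3.64% and 4.34% of all genes. The median log2 fold change of the 10 genes was 1.04, 0.81 and 0.74 at the 3 days, beside -0.12, -0.22 and -0.09 for all genes.

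Red cell markers differed between the plasma groups beside these values. The summed level of 5 red cell markers was 43408 to 78940 CPM in healthy plasma, 11636 to 21365 CPM in the control group at 4 days, 146181 to 155850 CPM at 10 days and 55690 to 151084 CPM at 31 days. In the hNSCs group it was 5415 to 12777 CPM at 4 days, 103076 to 310736 CPM at 10 days and 194138 to 305583 CPM at 31 days. Ctsb in the hNSCs group was at 276, 214 and 121 CPM at 4 days, 1028, 1352 and 606 CPM at 10 days and 1378, 373 and 771 CPM at 31 days, so both Ctsb and the red cell markers were lowest at 4 days in this group. The part of red cell RNA in this was not tested. The microglia and macrophage list summed to 479 to 838 CPM in healthy plasma and, in the control group, to 398 to 1150 CPM at 4 days, 474 to 599 CPM at 10 days and 315 to 473 CPM at 31 days. Neutrophil and monocyte markers summed to 315 to 1333 CPM in healthy plasma and 1626 to 6850 CPM in the control group at 4 days, without overlap. Liver markers summed to 1799 to 4890 CPM in healthy plasma and, in the control group, to 120 to 17572 CPM at 4 days, 4131 to 14503 CPM at 10 days and 2870 to 30340 CPM at 31 days. The part of these cells in the plasma values was not tested.

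From 4 to 31 days in the plasma of the control group, none of the 10 genes was called by edgeR (0.170% of all genes were called in either direction), and DESeq2 called Ctss, beside 6.77% of all genes. Ctss and Ctsz were at an unadjusted p under 0.05, with log2 fold changes of -2.09 and -1.49, beside 4.56% of all genes. Against the control group, hNSCs plasma had no called gene among the 10 at 4, 10 or 31 days, where 0.00679%, 0% and 0% of all genes were called, and DESeq2 called none of the 10, beside 6.23%, 8.15% and 11.9% of all genes. No gene of the 10 reached an unadjusted p under 0.05 at 4 or 10 days (3.94% and 4.06% of all genes did). At 31 days Ctsb (log2 fold change 1.08 ± 0.46) and Ctsd (0.96 ± 0.42) did, both with an adjusted p of 0.522, beside 8.57% of all genes. Without overlap between hNSCs and control plasma, Lamp2 was higher at 4 days, Ctsz lower at 10 days and Ctss, Ctsz and Ctsd higher at 31 days. In the same directions this held for 491, 350 and 677 of all 14720 genes tested.

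Brain-derived and plasma-derived EVs of healthy rats were compared in one model of all 42 libraries with 16945 genes tested. None of the 10 genes was called higher in brain (11.3% of all genes were) and 2 were called lower (10.8% of all genes were). These were Ctsz, which was at 0 in 2 of the 3 healthy brains, and Ctsb, with a log2 difference of -2.14 ± 0.56 (adjusted p = 0.00481). The brain and plasma libraries come from the same rats. In a separate fit of the healthy libraries alone, with the rat as a block and 13771 genes tested, Ctsb stayed called (adjusted p = 0.0457). Ctsz was not called there (adjusted p = 0.0663). Whether the block or the smaller set of libraries made this difference was not tested. For Lgmn the log2 difference was 1.19 ± 0.57, towards brain (adjusted p = 0.133), and Lgmn and Psap were called higher in brain without TMM factors and by DESeq2. The change at 4 days poststroke was larger in brain than in plasma by 2.90 ± 0.87 on the log2 scale for Ctsd (adjusted p = 0.161) and by 2.43 ± 0.77 for Ctsb (adjusted p = 0.189). No such difference was called among the 10 genes, and 0.159% of all genes were called. Together with Ctsz, 3 of the 10 were at an unadjusted p under 0.05, beside 10.3% of all genes. The fit of these differences did not include the rat as a block.

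Levels were ranked between genes per transcript length, on the deposited FPKM scale. Over the 21 brain libraries Psap came first (8.00 ± 5.59 FPKM, mean ± SD), followed by Ctsd (6.06 ± 5.01), Ctsb (5.71 ± 4.99), Ctss (3.24 ± 2.76), Lamp1 (2.80 ± 2.37), Lgmn (2.74 ± 2.00), Ctsl (1.88 ± 1.38), Grn (1.38 ± 1.07), Ctsz (0.850 ± 0.727) and Lamp2 (0.5 ± 0.444). No gene differed from its neighbour in this order by more than the larger SD, which spans all 7 groups. Within libraries, a gene was above the next in 9 of the 21 (Ctsd over Ctsb) to 19 (Ctsb over Ctss and Lgmn over Ctsl). In healthy brain Psap (2.96 ± 1.80 FPKM, n = 3) was above Lamp1 (0.969 ± 0.685) by more than the larger SD, and at 4 days in the control group Ctsb (9.97 ± 6.88) and Ctsd (9.20 ± 3.36) stood beside it (8.81 ± 3.78). In plasma the order opened with Ctsb (62.9 ± 44.0 FPKM, n = 21), Ctsl (23.4 ± 19.9), Lamp1 (18.9 ± 9.10), Psap (18.7 ± 6.76) and Ctsd (17.2 ± 9.00) and closed with Grn (4.45 ± 2.31) and Lgmn (4.06 ± 2.40), again with no neighbours apart by more than the larger SD. Ctsb was above Ctsl in 17 of the 21 plasma libraries. These orders pool 7 groups. In healthy plasma the order was Ctsb, Lamp1, Psap, Ctsz, Ctsl, Ctsd, Ctss, Lamp2, Grn and Lgmn, with no neighbours apart by more than the larger SD, and in the control group at 4 days Psap was apart from Ctsz and Grn from Lgmn by more than that.

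Brain and plasma FPKM of the same rat were compared for the 8 genes with a mean FPKM of at least 1 in both, all but Ctsz and Lamp2, among 3369 such genes. None of the 8 was called in a permutation test over the 21 rats after Benjamini-Hochberg adjustment. The highest was Grn, with Pearson's r = 0.728 (permutation p = 0.00026, adjusted p = 0.146) and Spearman's rho = 0.670 (permutation p = 0.0011, adjusted p = 0.625). Within groups, with group means removed, r was 0.605 for Grn (permutation p = 0.0258, adjusted p = 0.988), and without the 2 rats farthest from the median brain value it was 0.710. Lgmn followed with r = 0.478 (permutation p = 0.0279, adjusted p = 0.620) and rho = 0.465 (permutation p = 0.0347, adjusted p = 0.871). With group means removed, r for Lgmn was 0.0379. Without the 2 rats farthest from its median brain value, it was 0.698 (permutation p = 0.00094, adjusted p = 0.378). In the 12 rats without hNSCs, none of the 8 was called. The highest r there was 0.720 for Grn (permutation p = 0.00997, adjusted p = 0.248), followed by Psap with 0.634 (permutation p = 0.0286, adjusted p = 0.344). On log2 CPM after TMM, r was 0.614 for Grn and 0.146 for Lgmn, below Psap (0.195), Lamp1 (0.186) and Ctsl (0.165). The median r was 0.227 for the 8 genes and 0.117 for all 3369, and 0.156 and 0.0147 on log2 CPM.

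The genes most like the 10 across libraries were named by Pearson's r between their log2 CPM and the mean z score of the 10 genes, as a description without a test. Over the 21 brain libraries these were the growth factor gene Igf1 (r = 0.951), the ribosomal protein gene Rpl37a (0.928), LOC108349606 (0.927), the TGF-beta receptor gene Tgfbr1 (0.923) and LOC100912068 (0.921), out of 12809 genes compared. In plasma they included Nucb1 (0.713), Procr (0.693), Os9 (0.684) and Ece1 (0.679), out of 13708 genes. The libraries share their group structure and their depth.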

How the data were processed

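Messenger RNA of EVs from the brain and the plasma of the same rats was sequenced from stranded total RNA libraries, with no molecular identifiers named. The authors trimmed reads with in-house scripts, aligned them with Bowtie2 to Rnor_6.0 and deposited raw counts per gene. The deposited FPKM values were summed by the authors over transcripts from StringTie. The counting tool and its strand setting are not given in the sources used here. The labels name the blood fraction as plasma, but serum in the extraction text.

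Rows of 7855 unannotated new genes were left out of library sizes and tests, so the annotated share of each brain library limits its precision. Counts were tested with edgeR 4.0.16 (TMM factors, filterByExpr, quasi-likelihood test, 7 groups in 1 model per tissue, R 4.3.3), which kept 14515 genes in brain and 14720 in plasma, adjusted by Benjamini-Hochberg. Called means adjusted p under 0.05 and over 1.5-fold, the limits the authors used with limma. Alternatives were DESeq2 1.42.0 size factors and test, limma 3.58.1 on log2(FPKM + 1) and log2(FPKM + 0.1), no TMM, scaling by all counts, no filter, hemoglobin genes left out, only the groups compared, a replicate block, and each library left out. Leaving out libraries for the other listed genes was chosen after seeing the data. No 2 libraries held identical values. The fitting code was tested on simulated data. The 10 genes and all lists, including the rule for named genes, were chosen with earlier results of these data known, so lists are given as counts and medians. Up to 3 called genes per pathway list, up to 4 genes per cell type list beside those at 0, and the 5 genes most alike were named, except 1 in plasma that is not reported here. Replicates are separate rats.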

Additional observations from a re-analysis of the deposited data

How the results depend on the processing

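Single gene values were recomputed for all 10 genes in brain against healthy and between 4 and 31 days, and elsewhere for most genes named at an unadjusted p under 0.05. Of 1182 alternatives 1051 kept direction and call, 42 lost the call, 76 gained it and 13 reversed direction, all 13 between 4 and 31 days in brain. There the log2 fold change was 0.012 for Ctss, 0.544 for Lamp2 and 0.335 for Psap with scaling by all counts, 0.304, 0.362 and 0.639 with limma on log2(FPKM + 1), and 0.354, 0.90 and 0.697 on log2(FPKM + 0.1). For Lamp1 it was 0.117 and 0.148 with limma, and for Lamp2 0.087 with the replicate block and from -0.603 to 0.695 over libraries left out (0.695 without replicate 2 at 4 days). The number of the 10 genes called in brain at 4 days, 3 as reported, was 5 with only the groups compared, and 6 with DESeq2 and with limma at both pseudocounts, with a range of 0 to 2 over single libraries left out. At 10 days, also 3, it was 0 with scaling by all counts, with only the groups compared and with limma at both pseudocounts, and 6 with DESeq2, with a range of 0 to 6 over libraries left out. At 31 days, 0 as reported, limma called 10 at both pseudocounts (8273 and 11741 genes in all). For the mean of the 3 days, 0 as reported, it was 3 with no filter, 2 with the replicate block, 6 with DESeq2 and 6 and 8 with limma, and 0 to 5 over libraries left out. From 4 to 31 days it was 3 with only the groups compared. In plasma DESeq2 called 1 at 4 days, 2 at 10 days, 2 for the mean and 1 from 4 to 31 days, where edgeR called 0. Between healthy brain and healthy plasma, 2 as reported, it was 4 without TMM and 5 with DESeq2, each with 2 of them higher in brain. It was 1 with the rat as replicate block in the healthy libraries alone, and 2 to 5 over libraries left out. Of all genes, 2299 were called higher and 1564 lower of 16945 without TMM. DESeq2 called 2835 higher and 3095 lower of 16715, and the block 1257 and 1089 of 13771. Where no count of all genes is given for an alternative, its count of the 10 genes is not read as a result about them. The causes were not tested. Over all genes, DESeq2 called 846 at 4 days and 613 at 10 days in brain, where edgeR called 125 and 83. Scaling by all counts moved the median log2 fold change of all genes in brain from 0.05 to 0.75 at 4 days, from 0.00 to -0.19 at 10 days and from 0.24 to 1.66 at 31 days. The mean r of same-numbered libraries across groups was 0.0256 in brain (from -0.525 to 0.699) and -0.0623 in plasma (from -0.763 to 0.516). Between libraries of other numbers it was -0.0125 and 0.0317. In brain 10 of 21 libraries were closest to their own number, and in plasma 1 of 21. A pairing of rats by number across groups was thus not shown. With the replicate block, 4 of the 10 genes were called at 4 days and 2 at 10 days in brain, beside 3 at each day as reported. No count of all genes is given beside them. Libraries with few annotated counts limit the low genes, such as Ctsz, which is at 0 in 2 of 3 healthy brains.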
